A study of Mus musculus with 6 samples.

Results

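The genes described here encode 10 enzymes that build purine and pyrimidine nucleotides from small precursors: Cad, Dhodh and Umps for pyrimidines, and Ppat, Gart, Pfas, Paics, Adsl, Atic and Impdh2 for purines. They were chosen by name as enzymes of these pathways, with earlier results of these data known. Each symbol matched a single gene among the 32285 genes of the table, so all 10 of 10 were found. Transcripts were measured by bulk RNA sequencing of radial glial progenitors, the ventricular stem cells of the embryonic cortex, from wild-type (WT) mice at E10.5. Dissociated neocortical cells were cultured, and GSK2837808A, an inhibitor of lactate dehydrogenase (group GSK), or its solvent DMSO (group DMSO) was added about 2 h later. After about 24 h of exposure, roughly 1000 living cells were sorted per library by CD133, which Prom1 encodes, and amplified with Smart-seq2, which copies polyadenylated RNA along its length. Each group had 3 libraries. The labels give an inhibitor concentration of 100 mM, which is very high for culture medium and was not checked here. They do not say whether the replicates came from separate cultures or litters, so the p-values cover the spread between these libraries, which may be technical.

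De novo synthesis assembles the pyrimidine ring first and then joins it to ribose phosphate, whereas the purine ring is built step by step on ribose phosphate itself. Cells that divide rapidly need both routes to supply RNA and DNA precursors, while resting cells rely more on salvage of existing bases and nucleosides. Transcription factors of the MYC family, which bind the E-box sequence CACGTG, are known to drive many of these enzyme genes. Dhodh differs from the other enzymes in its place: it sits in the inner mitochondrial membrane and passes electrons to the respiratory chain.

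Libraries held 7187089 to 10224348 reads in GSK and 7837721 to 10051625 in DMSO, recovered from the deposited normalised values (two-sided exact permutation test of the totals, p = 0.8, with 0.1 the smallest p that this design allows). Genes that overlap ribosomal RNA (Gm42418, AY036118 and Gm26917) took 23.2% to 26.1% of reads in GSK and 20.2% to 21.6% in DMSO libraries, without overlap. With library totals set equal after removing these and globin genes, the 9 enzymes called lower in the main fit below were called lower again. Over the whole table this setting called 2602 genes lower and 2874 higher, against 2883 and 2563 in the main fit. What part the ribosomal RNA difference has in the results below was not otherwise tested. Radial glial markers were detected in both groups, and 9 of 12 fell in GSK libraries, with summed levels of 12368 to 15387 normalised reads in GSK and 21963 to 23040 in DMSO. Of 9 red blood cell markers 8 were tested and 7 rose, with sums of 183780 to 273997 in GSK and 2391 to 20598 in DMSO. Microglia and macrophage markers rose in 5 of 9 cases (sums of 523 to 1104 in GSK and 73.9 to 322 in DMSO), intermediate progenitor markers in 4 of 6 (2069 to 2852 and 1174 to 1544), and neuron markers in 3 of 8 with 1 lower (20755 to 25279 and 7040 to 14333). No endothelial marker was called among 3 tested of 7, and 2 of 7 tested mesenchyme and pericyte markers, of 8 listed, fell (sums of 83.8 to 122 in GSK and 106 to 145 in DMSO for endothelium, and 17012 to 26588 and 27221 to 34304 for mesenchyme). In the main fit 19.1% of all genes tested were called lower and 17.0% higher. No listed marker was at 0 throughout a group. The part of this mixture in the results below was not tested, and in bulk samples fewer cells of a type and less RNA per cell cannot be told apart.

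The promoter sequences are shown first, and a link between them and the changes in the transcripts was not tested. RefSeq promoter windows (GRCm38.p6, from 250 bases before to 50 after an annotated start) were matched by symbol for 8 of the 10 genes, Dhodh and Pfas being the others. The E-box core CACGTG, which reads the same on both strands, lay in 3 of the 8 windows, against 7.15% of all 32851 windows. These were Atic (chr1:71557137-71557166), Impdh2 (chr9:108560314-108560343) and Paics (chr5:76951087-76951116), each printed as 30 bases on the plus strand, with the E-box in capitals.
Atic: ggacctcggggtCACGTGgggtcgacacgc
Impdh2: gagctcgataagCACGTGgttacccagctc
Paics: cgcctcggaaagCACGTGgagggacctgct
The motif began at position -7 for Atic, -110 for Impdh2 and -203 for Paics relative to the RefSeq start. GENCODE vM21, whose gene coordinates are given with each gene, places the starts elsewhere. The first base of the motif is then at -1 for Atic, where the rest runs into the gene, and at -208 for Paics. For Impdh2 it is at 41, inside the gene.

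A GC box, GGGCGG on either strand and without overlap with the E-box, was found in all 8 matched windows, against 35.7% of all windows. The CCAAT box, also searched on both strands as CCAAT, was found in 4 of the 8, against 37.4% of all windows. For these boxes and the E-box the share covers windows of all genes, expressed here or not. No share was taken over expressed genes alone, so the counts are not shown to be particular to these enzymes. The Cad gene, which had the largest fall of the 10, carried GC boxes at positions -56 and -35. Its sequence before the start follows (chr5:31054624-31054779, plus strand, 156 bases). The GC boxes are in capitals, read on this strand as their reverse complement.
Cad: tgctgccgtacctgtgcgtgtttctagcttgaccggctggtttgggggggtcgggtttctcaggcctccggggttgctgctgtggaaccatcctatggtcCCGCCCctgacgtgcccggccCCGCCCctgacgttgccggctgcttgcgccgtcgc
No CACGTG lay in the Cad window, which says only that these letters are not in it. The window ends 50 bases after the start, and sequence beyond it was not searched. A match is a stretch of letters and was not tested as a binding site.

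Transcripts of 9 of the 10 enzymes fell after exposure to the lactate dehydrogenase inhibitor and none rose (limma, p adjusted by Benjamini-Hochberg over all genes tested, below 0.05), against 19.1% of the 15073 genes tested that were called lower and 17.0% called higher. All 7 purine enzymes fell, and Cad and Umps fell among the pyrimidine enzymes, while Dhodh did not pass the test. The median log2 fold change of the 10 was -1.22, against 0.01 over all genes tested, and 6 of the 10 fell at least 2-fold, against 6.91% of all genes. In 9 of 10 cases every GSK value lay below every DMSO value, which held for 24.4% of all genes. As the list was chosen with earlier results of these data known, these shares describe it and do not test it. Together the 10 genes took 0.0664% to 0.0736% of reads in GSK libraries and 0.131% to 0.137% in DMSO libraries. All 10 had a mean above the minimum of 10 normalised reads and were tested, with 115 to 3826 reads per gene and library behind the values.

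**Figure D1:**
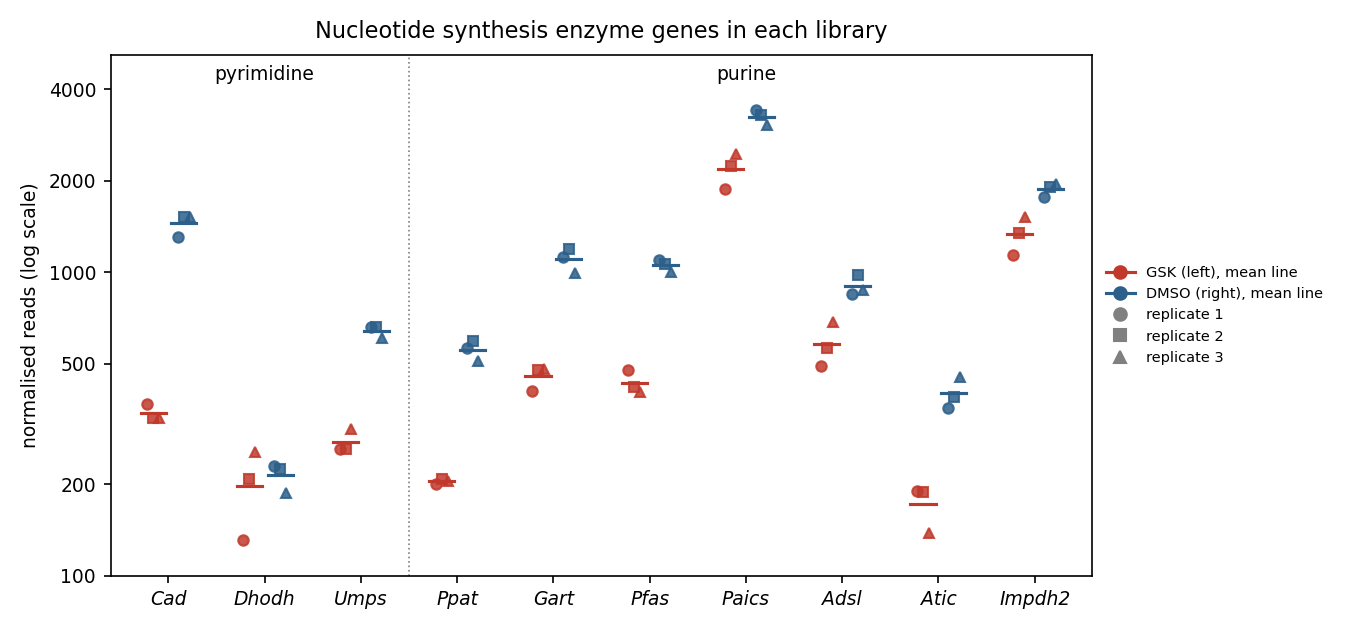
Normalised reads (log axis) of the 10 enzyme genes in each library, GSK at the left and DMSO at the right of each gene, with a symbol per replicate and a line at the group mean. The groups are apart for 9 genes, widest for Cad (GSK 330 to 369, DMSO 1301 to 1523), and overlap for Dhodh.

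Pyrimidine synthesis starts with Cad (chromosome 5, 31054780 to 31078479, GRCm38), whose protein joins carbamoyl phosphate synthetase, aspartate transcarbamylase and dihydroorotase in a single chain. Cad had 369, 331 and 330 normalised reads in the GSK libraries, against 1301, 1523 and 1520 in the DMSO libraries. The groups were far apart, and the 3 GSK libraries were close to each other. The mean in GSK was 23.7% of that in DMSO (343 ± 22.1 and 1448 ± 127, SD, n = 3 each), which gave a log2 fold change of -2.07 ± 0.13 (SE, limma adjusted p = 2.58e-10).

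Dhodh (chromosome 8, 109591343 to 109608673) encodes dihydroorotate dehydrogenase, which makes orotate in mitochondria. It had 131, 208 and 256 normalised reads in the GSK libraries, against 231, 224 and 188 in the DMSO libraries. The groups overlapped, with both the lowest and the highest of the 6 values in GSK libraries. The log2 fold change was -0.16 with a 95% interval of -0.58 to 0.26 (limma adjusted p = 0.567), so a fall of the size seen for Cad lay outside the interval. Without GSK replicate 1 the estimate was 0.11, and it was not called either. Umps (chromosome 16, 33954782 to 33967038), whose protein turns orotate into UMP, had 261, 262 and 305 normalised reads in the GSK libraries, against 660, 659 and 608 in the DMSO libraries. Umps was thus lower in every GSK library, at 42.9% of the DMSO mean (log2 fold change -1.22 ± 0.13, SE, limma adjusted p = 4.93e-07).

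The enzymes before and after Dhodh in the same chain therefore gave different values from it in these libraries. The log2 ratio of Dhodh over Cad, in normalised reads not corrected for length as for all such ratios here, was -1.49, -0.67 and -0.37 in GSK libraries, against -2.49, -2.76 and -3.01 in DMSO libraries. That of Umps over Dhodh was 0.99, 0.33 and 0.25 in GSK libraries, against 1.51, 1.55 and 1.69 in DMSO libraries. Neither ratio overlapped between the groups (two-sided exact permutation test over libraries, p = 0.1 for each, which is the smallest possible). These ratios were formed after the values had been seen, as were the other ratios of enzymes that are neighbours in a pathway.

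Among the purine enzymes, those of the early steps had the lowest estimates. Ppat (chromosome 5, 76913249 to 76951578) encodes the amidotransferase of the committing step. It had 200, 208 and 206 normalised reads in the GSK libraries, against 563, 593 and 511 in the DMSO libraries. The GSK values were nearly equal to each other and well below the DMSO values, at 36.8% of their mean (log2 fold change -1.43 ± 0.13, SE, limma adjusted p = 7.46e-08).

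Gart (chromosome 16, 91621186 to 91646952) encodes a protein that carries several activities of the next steps, including glycinamide ribonucleotide transformylase. It had 406, 475 and 480 normalised reads in the GSK libraries, against 1125, 1191 and 997 in the DMSO libraries. Pfas (chromosome 11, 68985697 to 69008460), the gene of formylglycinamidine ribonucleotide synthase, had 477, 417 and 404 normalised reads in the GSK libraries, against 1100.5, 1067 and 1005 in the DMSO libraries. Both genes stood at about the same share of their DMSO mean, 41.1% for Gart and 40.9% for Pfas, with log2 fold changes of -1.28 and -1.29 (limma adjusted p = 1.91e-07 and 1.23e-07). The log2 ratio of Pfas over Gart averaged -0.07 in GSK and -0.06 in DMSO libraries, with overlapping groups (exact permutation p = 1). That of Gart over Ppat averaged 1.14 in GSK and 0.99 in DMSO libraries, and that of Paics over Pfas 2.33 and 1.62. Neither overlapped between the groups (exact permutation p = 0.1 for each). The difference for Gart over Ppat was only 0.15, so a small difference can also give this p.

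Smaller falls followed in the middle of the route. Paics (chromosome 5, 76951307 to 76967509) encodes the carboxylase and synthetase that act after the imidazole ring is closed. It had 1882, 2245 and 2447 normalised reads in the GSK libraries, against 3416, 3287 and 3047 in the DMSO libraries. The groups did not overlap, and the GSK mean was 67.4% of the DMSO mean (log2 fold change -0.58 ± 0.14, SE, limma adjusted p = 0.00275). Adsl (chromosome 15, 80948490 to 80970946), the gene of adenylosuccinate lyase, which works in this chain and again on the way to AMP, had 490, 561 and 684 normalised reads in the GSK libraries, against 850, 982 and 873 in the DMSO libraries. GSK replicate 1 was lowest for both genes, as it was for 7 of the 10. Adsl stood at 64.2% of its DMSO mean (log2 fold change -0.65 ± 0.14, SE, limma adjusted p = 0.00103).

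Atic (chromosome 1, 71557150 to 71579631), whose protein closes the second ring to give IMP, had 190, 188 and 138 normalised reads in the GSK libraries, against 356, 389 and 451 in the DMSO libraries. Atic fell to 43.2% of its DMSO mean (log2 fold change -1.22 ± 0.16, SE, limma adjusted p = 5.61e-06), an estimate below those of Adsl before it and Impdh2 after it. Impdh2 (chromosome 9, 108560286 to 108565584) encodes IMP dehydrogenase, the rate-limiting enzyme for guanine nucleotides in dividing cells. It had 1136, 1347 and 1522 normalised reads in the GSK libraries, against 1764, 1907 and 1960 in the DMSO libraries. This was the smallest change among the 9 that fell, to 71.1% of the DMSO mean (log2 fold change -0.50 ± 0.13, SE, limma adjusted p = 0.00634). The log2 ratio of Atic over Adsl averaged -1.75 in GSK and -1.18 in DMSO libraries, and that of Impdh2 over Atic 2.95 and 2.24, without overlap between the groups in either case (exact permutation p = 0.1 for each). For Adsl over Paics the groups overlapped, at -1.92 in GSK and -1.85 in DMSO libraries (exact permutation p = 0.5). The 3 genes with an E-box in the printed windows included the pair with the smallest significant falls, Impdh2 and Paics, and Atic with a larger one. The Paics motif also lies inside the annotated Ppat gene (log2 fold change -1.43), and Dhodh and Pfas had no window. Whether the motif bears on the size of a fall was not tested.

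**Figure D2:**
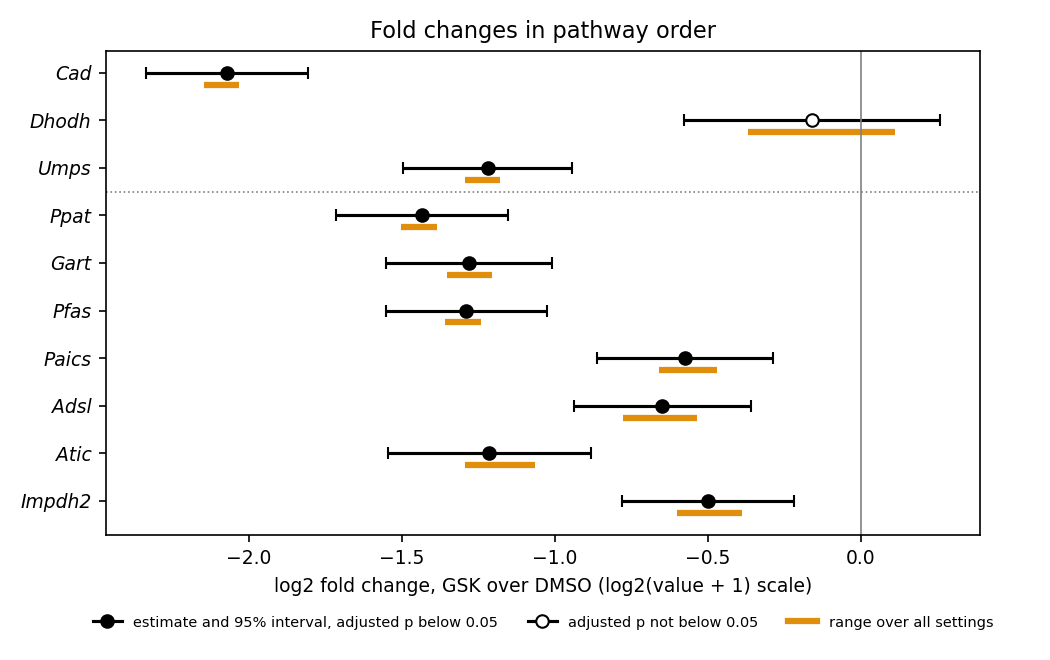
Log2 fold change of GSK over DMSO for each enzyme gene in pathway order, pyrimidine enzymes above the dotted line and purine enzymes below it. Points with black bars are limma estimates with 95% intervals, filled where the adjusted p is below 0.05. Orange bars span the estimates over all settings tried. The bars of 9 genes stay left of 0, and those of Dhodh cross it.

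Ppat and Paics lie head to head on chromosome 5 and their annotated 5′ ends overlap by 272 bases on opposite strands. Both fell, with log2 fold changes of -1.43 for Ppat and -0.58 for Paics. The log2 ratio of Ppat over Paics was -3.23, -3.43 and -3.56 in GSK libraries, against -2.60, -2.47 and -2.57 in DMSO libraries (exact permutation p = 0.1). Ppat was thus lower relative to its neighbour in every GSK library. The Smart-seq2 protocol keeps no strand information, and reads from the shared stretch could come from either gene. The same holds for Umps and its antisense gene Gm15829, which averaged 30.3 normalised reads in GSK and 92.2 in DMSO libraries, for Gart and Gm15964 (107 to 118 in GSK and 206 to 311 in DMSO), and for Impdh2 and the end of Ndufaf3 (256 in GSK and 205 in DMSO, an overlap of 48 bases). Ppat also contains the antisense gene 2310040G07Rik over 19391 bases, and Pfas the small nuclear RNA gene Gm25819 on the opposite strand (84 bases) and Mir3062 on its own strand (105 bases). Adsl contains the pseudogene Gm6612 on its own strand (395 bases). These 4 genes were not analysed here. A pseudogene of Impdh2, Impdh2-ps, was not analysed here, and how reads shared with it were counted is not given in the sources used here.

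Levels were compared between the genes per kilobase of transcript, using the principal transcript of GENCODE vM21. Paics and Impdh2 were the most abundant in both groups, with 883 ± 115 and 718 ± 104 normalised reads per kilobase in GSK and 1310 ± 75.4 and 1010 ± 54.5 in DMSO libraries (SD, n = 3). In DMSO libraries Gart (314 ± 28.0), Adsl (243 ± 19.1), Cad (203 ± 17.8), Umps (184 ± 8.55), Pfas (166 ± 7.64), Atic (140 ± 16.9), Ppat (140 ± 10.4) and Dhodh (105 ± 11.3) followed in that order. The ranges of the libraries overlapped between Cad and Umps, Pfas and Atic, and Atic and Ppat, and no other neighbours overlapped. In GSK libraries Adsl (156 ± 26.4) came before Gart (129 ± 11.7), Dhodh (97.1 ± 30.9), Umps (79.1 ± 7.18), Pfas (67.9 ± 6.07), Atic (60.5 ± 10.4), Ppat (51.4 ± 0.967) and Cad (48.1 ± 3.10). There every pair of neighbours overlapped except Impdh2 and Adsl. Cad was last in GSK libraries but ahead of Umps, Pfas, Atic, Ppat and Dhodh in DMSO libraries, whereas Dhodh stood ahead of Umps in GSK libraries and was last in DMSO libraries.

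The enzymes around the de novo chain fell in part. Of 7 listed genes that supply activated ribose or lead from IMP to AMP and GMP, 6 were tested, 5 fell and none rose (median log2 fold change -0.54), against 19.1% lower among all genes tested. Prps2, which makes activated ribose phosphate, fell to 71.1 ± 27.8 normalised reads in GSK libraries, against 170 ± 7.54 in DMSO libraries (log2 fold change -1.32, limma adjusted p = 0.000108). Its sister gene Prps1 had a log2 fold change of -0.63, and Adss, which starts the branch to AMP, one of -0.55. Impdh1, the other IMP dehydrogenase gene, had 126 ± 14.6 normalised reads in GSK and 180 ± 7.81 in DMSO libraries (log2 fold change -0.52, limma adjusted p = 0.0152). Its call was lost without DMSO replicate 2 (limma adjusted p = 0.0655). The log2 ratio of Impdh2 over Impdh1 averaged 3.39 in GSK and 3.37 in DMSO libraries, with overlapping groups (exact permutation p = 1). Guk1, which phosphorylates GMP and was named after its values were seen, had 410 ± 69.4 normalised reads in GSK and 410 ± 40.9 in DMSO libraries.

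After UMP, 3 of 5 genes of the pyrimidine route were called lower and 1 higher (median log2 fold change -0.66). Among all genes tested, 19.1% were called lower and 17.0% higher. Ctps, a CTP synthase gene, fell to 469 ± 58.5 normalised reads in GSK libraries, against 1105 ± 136 in DMSO libraries. Its paralogue Ctps2 rose, with 332, 431 and 413 in GSK libraries, against 275, 268 and 240 in DMSO libraries (log2 fold changes -1.23 and 0.58, limma adjusted p = 6.59e-07 and 0.00382). The nucleoside diphosphate kinase genes Nme1 and Nme2 had log2 fold changes of -1.17 and -0.66, and since they are close copies of each other the split of reads between them is uncertain.

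Salvage and breakdown genes did not fall as a block. Of 10 salvage genes 8 were tested, 3 fell and 1 rose (median log2 fold change -0.07, against 0.01 over all genes tested, of which 19.1% fell and 17.0% rose). Adk, the adenosine kinase gene, fell to 281 ± 18.7 normalised reads in GSK libraries, against 663 ± 28.2 in DMSO libraries (log2 fold change -1.24, limma adjusted p = 3.25e-07). The uridine and cytidine kinase gene Uck2 and the adenine salvage gene Aprt had log2 fold changes of -0.97 and -0.62, whereas Uckl1, a relative of Uck2, rose with 0.61. Hprt, which salvages hypoxanthine and guanine and was named after its values were seen, had 217, 290.4 and 302 normalised reads in GSK libraries, against 248.6, 230.3 and 269.5 in DMSO libraries (log2 fold change 0.10, 95% interval -0.22 to 0.43, limma adjusted p = 0.644).

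Of 16 breakdown genes 10 were tested, 3 rose and 1 fell (median log2 fold change 0.01), counts near the 17.0% higher and 19.1% lower among all genes tested. Ampd3, the AMP deaminase gene known from red blood cells, rose to 110 ± 15.0 normalised reads in GSK libraries, against 48.8 ± 0.990 in DMSO libraries (log2 fold change 1.15, limma adjusted p = 0.000139). The nucleotidase genes Nt5c3, whose protein is also known from red blood cells, and Nt5c2 rose with log2 fold changes of 0.61 and 0.51. The red blood cell markers given above moved with these genes, and their part was not tested. Ada, the adenosine deaminase gene, fell by 0.93 on the log2 scale (37.8 ± 7.69 normalised reads in GSK and 72.2 ± 4.32 in DMSO libraries).

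**Figure D3:**
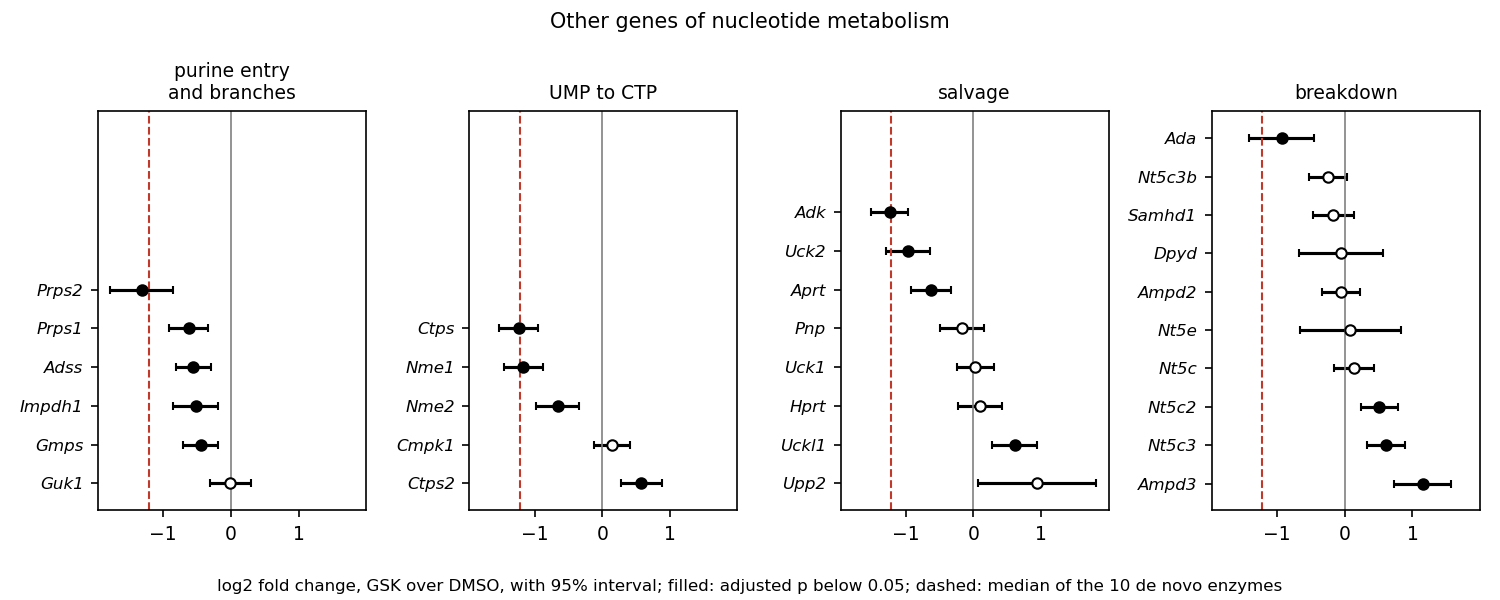
Log2 fold changes of GSK over DMSO with 95% intervals for the tested genes of 4 other lists of nucleotide metabolism, filled where the limma adjusted p is below 0.05. The dashed line marks the median of the 10 de novo enzymes, -1.22. Most genes of the first list lie left of 0, and salvage and breakdown genes lie on both sides.

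Markers of DNA replication and Mycn fell beside the enzymes, while Myc did not pass the test. Of 20 S phase markers 19 fell and none rose, against 19.1% lower and 17.0% higher among all genes tested. Their median log2 fold change was -1.37, beside -1.22 for the enzymes. Mcm3, a subunit of the replicative helicase, fell to 459 ± 24.4 normalised reads in GSK libraries, against 1897 ± 74.6 in DMSO libraries, and Uhrf1 and Mcm5 had log2 fold changes of -1.81 and -1.54. Mycn, the MYC family gene of neural progenitors, had 193, 251 and 243 normalised reads in GSK libraries, against 962, 1090.3 and 843 in DMSO libraries (log2 fold change -2.07, limma adjusted p = 1.33e-09). Myc had 94.8 ± 20.4 in GSK and 114 ± 12.8 in DMSO libraries and was not called (log2 fold change -0.29, limma adjusted p = 0.27). Ldha, which encodes a subunit of the enzyme that the inhibitor targets, had 1384 ± 301 in GSK and 2339 ± 173 in DMSO libraries. Whether the enzyme transcripts followed the share of cycling cells or MYCN was not tested.

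**Figure D4:**
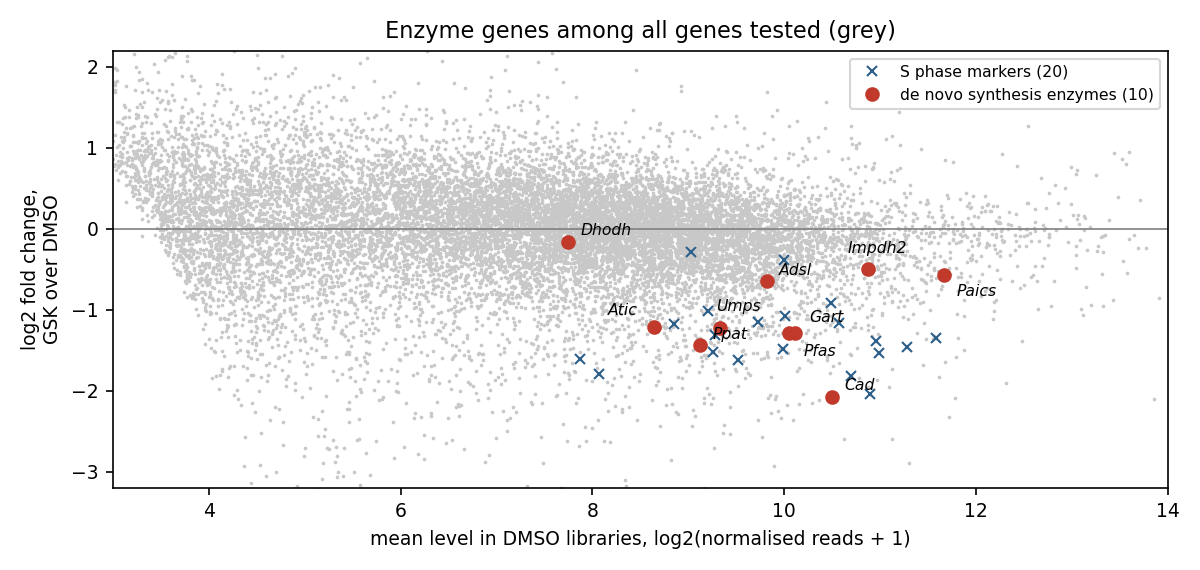
Log2 fold change of GSK over DMSO against the mean level in DMSO libraries for all genes tested (grey), with the 10 enzymes in red and 20 S phase markers as blue crosses; genes beyond the axes are not drawn. Dhodh lies near 0 at -0.16, Cad lies at -2.07, and the other enzymes lie between them.

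The profile of the enzymes over the 6 libraries, taken as the mean of their centred log2 values, was -0.63 to -0.44 in GSK and 0.48 to 0.58 in DMSO libraries. Among 9559 other genes with a mean of at least 100, the most similar included Jpt2, Srsf10, Exo1 and Incenp, each with a Pearson r of at least 0.999 over the 6 libraries. These 4 were lower in GSK libraries, with log2 fold changes of -1.68, -0.73, -2.16 and -1.59. As 888 genes had an r above 0.95, the likeness is shared with many genes that were lower in GSK libraries, and it describes 6 points that are split by group.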

How the data were processed

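Bulk RNA-seq was done on 6 libraries of sorted progenitors, 3 exposed to GSK2837808A and 3 to DMSO. The deposited signal values are normalised read counts that the authors gave in a single table, with 1 value per gene and library. The submitters' processing notes name STAR, DESeq, GRCm38 and mm10, with no role or version. Of the read counter, annotation release and strand setting nothing is stated.

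The 118098 rows repeat each gene's value on every transcript row, and 1 row was kept for each of 32285 genes. The table left 128 genes unnamed, and the reference list of symbols supplied 51 of these names. Dividing each library by its smallest value gave whole numbers, within 0.01, for 100% of nonzero entries, and these were taken as reads. Coordinates and transcript lengths came from GENCODE vM21 by identifier, the length being that of the longest top-ranked APPRIS transcript, or of the longest transcript where none is ranked.

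Log2(value + 1) was fitted with limma 3.58.1 (R 4.3.3), using group alone as a term and a trended, robust prior on the variance. Genes averaging at least 10 across the 6 libraries entered, 15073 in all, and p-values were adjusted by Benjamini-Hochberg over all of them at 0.05. Fold changes on this scale understate the change of low genes. Ratios between genes were compared by exact permutation over libraries. Counting error is covered by these p-values only as part of the spread between libraries. The fit was tested on simulated data, with counts drawn separately for each library and known changes put in. That checks the code and does not bear on effects shared between libraries.

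Members and lists were chosen with earlier results of these data known. All 10 members are named, with up to 3 called genes in each direction by smallest p in each other list, Impdh1, Ldha, Myc, Mycn and the 5 genes of most similar profile, of which 1 is not reported here. Guk1, Hprt and the genes that overlap a member were named after their values were seen. The 19 alternatives were other pseudocounts, filters, scalings, variance priors and thresholds, array weights, a block for the replicate number, leaving out each library, and count tests of the recovered reads with edgeR 4.0.16 or DESeq2 1.42.0. The labels give no batch.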

Additional observations from a re-analysis of the deposited data

How the results depend on the processing

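Under all 19 alternatives the same 9 enzyme genes were called lower and none was called higher. In the whole table the calls ran from 2019 to 4311 genes lower and from 1562 to 4651 higher. Both of the highest counts came from array weights, whose estimator did not converge. The log2 fold change ran from -2.15 to -2.03 for Cad and from -0.60 to -0.39 for Impdh2, whose highest adjusted p was 0.0432. Dhodh was called in none of them and ran from -0.37 to 0.11, positive only without GSK replicate 1. Impdh1 kept its direction in all 19 but missed the call without DMSO replicate 2 (-0.49, adjusted p = 0.0655) and at a threshold of 0.01 (-0.52). edgeR and DESeq2 called the same 9 genes.

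Of 266 counts over the lists and the whole table, 260 stayed within 1.5 times the main one. Breakdown genes called lower numbered 0 with a mean of at least 100, where Ada was not tested, and 2 with equal library totals, against 1. Salvage genes called higher numbered 3 with array weights, whose estimator did not converge, and 1 to 2 with a library left out (2 without GSK replicate 3), against 1. Genes called higher in the whole table numbered 4651 with array weights and 1562 at a threshold of 0.01, against 2563. The cause was not tested, except that a stricter threshold calls fewer genes by construction. Across settings the median of all genes stayed between -0.06 and 0.05.

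The replicate number showed no clear pairing of the libraries. Deviations of equally numbered libraries correlated at 0.01, -0.02 and 0.05, and not every library correlated best with its own number. So few libraries make this a weak check, which cannot tell whether equal numbers mark shared cultures or litters. With the replicate block 9 enzymes were again called lower, beside 2980 lower and 2662 higher genes in all. With 3 libraries a group, a change like the Dhodh estimate lay within the spread.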
